A study of Mus musculus with 8 samples.

Results

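The 10 genes described here encode enzymes and 1 chaperone that modify collagen chains and crosslink collagen fibers. They were chosen by name, as Colgalt1, Colgalt2, Plod1, Plod2, Plod3, P4ha1, P4ha2, Serpinh1, Lox and Loxl1, and are 10 of the 46517 genes counted in mouse liver. They and the other gene lists described below were chosen with earlier results of these data known, so counts over them are descriptive. The animals were 4 male MøFoxO1-KO mice, which carried FoxO1 loxP/loxP alleles and Lyz2-Cre, and 4 male WT littermates, which carried FoxO1 loxP/loxP alleles without Cre. The comparison addresses how the loss of FoxO1 from myeloid cells altered the liver transcriptome of mice with diet-induced nonalcoholic steatohepatitis (NASH), a fatty liver disease with inflammation and fibrosis. Mice of both groups were C57BL/6, received a NASH diet that began at 6 weeks of age and lasted 25 weeks, and were euthanized at 31 weeks of age after a 16-hour fast. No mouse on another diet entered the comparison, and no mouse carried Lyz2-Cre without the floxed alleles. The Lyz2 promoter drives Cre in myeloid cells throughout the body, whereas the RNA came from whole liver, so fewer cells of a type and less RNA per cell cannot be told apart. WT mice are numbered 22 to 25 and MøFoxO1-KO mice, also written KO, 26 to 29, as in the sample titles.

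Collagen chains are modified in the endoplasmic reticulum (ER) before they leave the cell. Prolyl hydroxylases stabilize the triple helix, lysyl hydroxylases prepare lysines for glycosylation and crosslinking, galactosyltransferases add galactose to hydroxylysine, and the chaperone HSP47, encoded by Serpinh1, binds the folded helix. Outside the cell, lysyl oxidases oxidize lysines and hydroxylysines so that collagen molecules become covalently crosslinked, which makes scar tissue stiffer and harder to degrade. In fibrotic liver, activated hepatic stellate cells are known as the main source of fibrillar collagen.

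Total counts per mouse ranged from 15253218 to 18025481. Normalized counts are counts divided by the scaled library size of the mouse, relative to the mean of the 8 libraries. Foxo1 itself had 404 ± 73.9 (SD, n = 4) normalized counts in WT livers and 359 ± 73.4 (SD, n = 4) in KO mice, and the groups overlapped (edgeR, log2 fold change -0.17, Benjamini-Hochberg adjusted P = 0.686). All 8 hepatocyte markers were detected in these livers. The library of WT mouse 23 stood apart on the first principal component, which held 34.7% of the variance, and was the lowest of the 8 libraries for 8 of 12 markers of stellate cells and myofibroblasts, 8 of 12 markers of macrophages and Kupffer cells and 7 of 8 markers of endothelial cells. Among MøFoxO1-KO livers, mouse 28 had the lowest summed level of the macrophage markers, at 4510 normalized counts against 6523, 13139 and 19197 in mice 26, 27 and 29, which placed it within the WT range of 3565 to 5801. Where leaving out mouse 23 or mouse 28 changed an overlap or moved a fold change widely, the values without them are given.

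All 10 genes were present in the count table. Promoter sequences of RefSeq on GRCm38.p6 matched 6 of the 10 genes, with 7 windows of 300 bases (250 before and 50 after the start). These windows had a median GC content of 62.3%, against 52.7% in all 32851 windows, and a median observed to expected CpG ratio of 0.822 against 0.384. The 2 windows of Colgalt1, which begin at 71610774 and 71610918, overlap, so the bases they share entered both. The stretches below are the 250 bases before the start of Colgalt1, the gene whose groups did not overlap, and of P4ha1 and P4ha2, which encode alternative catalytic subunits of the same enzyme. Capitals mark ACGTG or GCGTG on either strand, the core letters of the hypoxia response element. All 3 genes lie on the plus strand.
Colgalt1, chr8:71610774-71611023: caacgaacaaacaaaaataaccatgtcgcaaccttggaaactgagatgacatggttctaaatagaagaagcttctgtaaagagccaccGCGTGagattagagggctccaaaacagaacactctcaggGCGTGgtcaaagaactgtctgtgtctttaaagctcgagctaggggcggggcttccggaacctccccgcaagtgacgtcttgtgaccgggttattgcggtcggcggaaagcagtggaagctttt
P4ha1, chr10:59323046-59323295: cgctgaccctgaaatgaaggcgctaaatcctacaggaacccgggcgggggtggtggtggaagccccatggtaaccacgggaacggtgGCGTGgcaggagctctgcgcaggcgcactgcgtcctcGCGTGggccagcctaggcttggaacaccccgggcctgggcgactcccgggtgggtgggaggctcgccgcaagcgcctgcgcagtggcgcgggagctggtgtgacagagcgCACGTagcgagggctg
P4ha2, chr11:54100674-54100923: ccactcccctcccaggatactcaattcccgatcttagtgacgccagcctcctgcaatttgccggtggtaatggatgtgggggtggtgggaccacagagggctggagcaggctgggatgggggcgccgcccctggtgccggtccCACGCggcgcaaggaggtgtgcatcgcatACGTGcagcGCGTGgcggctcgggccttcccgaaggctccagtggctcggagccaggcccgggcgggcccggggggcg
The stretches of Colgalt1 and P4ha1 ended at the base before the first exon that the deposited table gives for the gene, although in GENCODE M21 Colgalt1 begins within its stretch, at 71610998, and the stretch of P4ha2 lay in an intron, between a first exon of the table that ended at 54100168 and an exon that began at 54100924. No marked match overlapped another. In the full windows, GCGTG was present on either strand in 6 of 7 (Colgalt1 in both of its windows, P4ha1, P4ha2, Plod1 and Plod3) and in 32.4% of all windows. ACGTG was present in 4 of 7 (P4ha1, P4ha2, Plod3 and Serpinh1) and in 19.6% of all windows. Both motifs contain CG, and the windows were not matched for CpG content. The FoxO core GTAAACA was present in 0 of 7 windows and in 3.65% of all windows, and the ER stress element in 0 of 7 and in 0.119%. The heat shock pair TTCNNGAA was present in 3 of 7 windows (Colgalt1 in both and P4ha2) and in 8.52% of all. A match in the bases that the Colgalt1 windows share was counted in both. TATAAA was present in 2 of 7 (P4ha1 and Plod1) and in 13.6%. A match describes the letters of a window and is not a measured binding site.

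Of the 10 genes, 9 had enough counts to be tested and Lox did not. None of the 9 was called differentially expressed between MøFoxO1-KO and WT livers by edgeR's quasi-likelihood test, which required a log2 fold change beyond 1.5 in either direction and a Benjamini-Hochberg adjusted P under 0.05, against 0.188% of all 13278 genes tested (0.0527% with a higher and 0.136% with a lower level). Without the limit on the fold change the count was also 0 of 9, against 0.294% of all genes. At both limits DESeq2 called 1 of the 9 (Colgalt2), against 1.09% of all genes it tested, and limma-voom called 0. At an unadjusted P under 0.05 there were 2 of 9, Colgalt2 with a higher and Colgalt1 with a lower mean in MøFoxO1-KO livers, against 8.65% of all genes on the higher side and 8.06% on the lower side (16.7% in all). Fitted log2 fold changes were above 0 for 3 of the 9 genes and below 0 for 6, with a median of -0.16, beside a median of -0.01 over all genes tested. The groups did not overlap for 1 of the 9, Colgalt1, against 9.71% of all genes tested (5.00% higher and 4.71% lower in every MøFoxO1-KO liver).

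**Figure D1:**
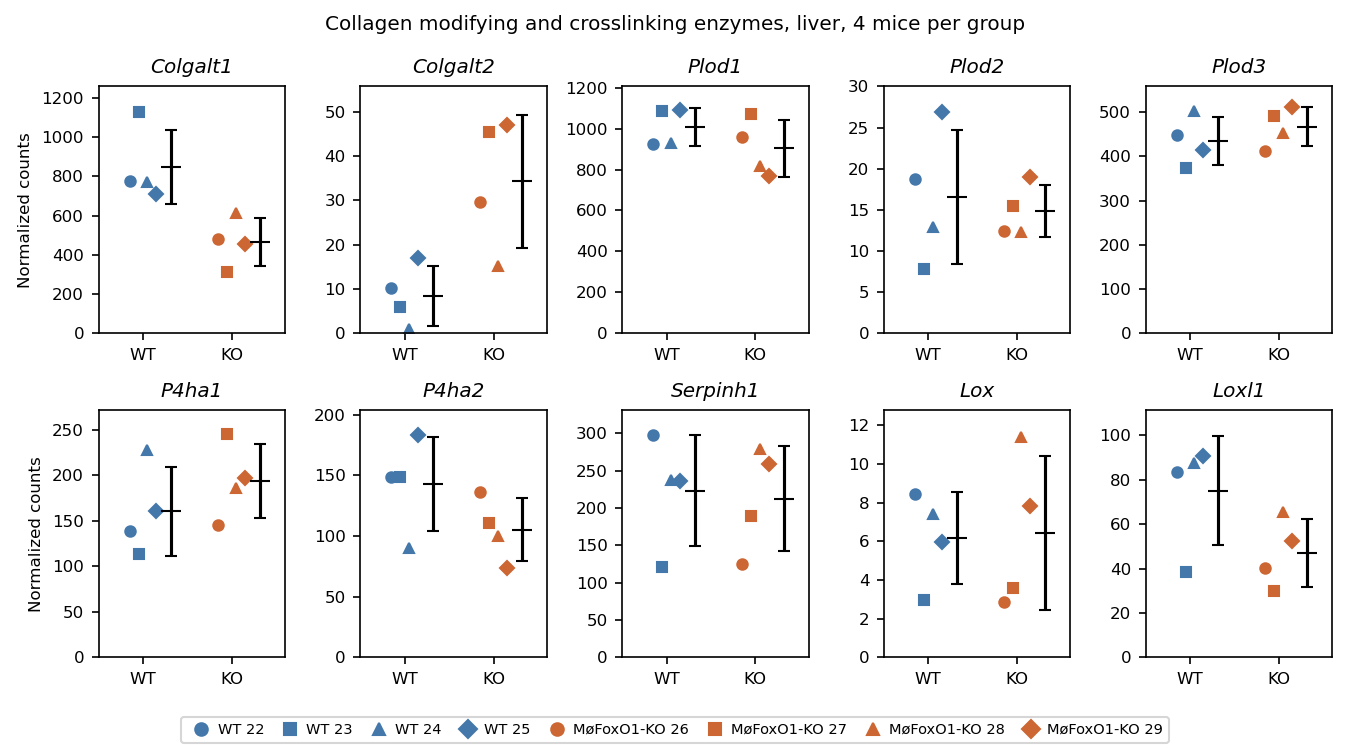
Normalized counts of the 10 genes in each liver, with 1 symbol per mouse and the mean ± SD of each group (n = 4) in black beside it. Each vertical axis starts at 0 and has its own scale. Colgalt1 was lower in each of the 4 MøFoxO1-KO livers than in every WT liver, whereas the groups overlapped for the other 9 genes.

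The galactosyltransferases had fold changes of opposite sign. Colgalt1 had 0.550 times its WT level in MøFoxO1-KO livers and Colgalt2 had 4.03 times its WT level, and neither passed the threshold for a call in the main test. Colgalt1 (ENSMUSG00000034807, chromosome 8 of GRCm38 from 71611024 to 71624909, plus strand) encodes the more widely expressed of the 2 enzymes that attach galactose to hydroxylysine. Its normalized counts were 776, 1127, 773 and 712 in WT mice 22 to 25 and 481, 312, 613 and 458 in MøFoxO1-KO mice 26 to 29. Every MøFoxO1-KO liver was below every WT liver, with mouse 23 the highest of all and mouse 27 the lowest. The means were 847 ± 189 (SD, n = 4) in WT livers, as against 466 ± 123 (SD, n = 4) in KO mice. An exact two-sided permutation test of the difference in means gave P = 0.0286, the smallest that 4 against 4 allow. Any gene whose groups do not overlap reaches this value. The log2 fold change was -0.86 (standard error 0.21, 95% interval from -1.33 to -0.39), and edgeR gave a P of 0.00220 and a Benjamini-Hochberg adjusted P of 0.120. Without mouse 23, whose value was far from those of the other 3 WT mice, the log2 fold change was -0.69 and the groups still did not overlap. By DESeq2 the adjusted P of Colgalt1 was 0.0105, and by edgeR without a filter on low counts it was 0.0455, and in both fits the log2 fold change remained inside the limit of 1.5.

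Of the 3179 exon bases of Colgalt1, 493 are shared with exons of Unc13a, a gene of synaptic vesicle release on the opposite strand. Whether the counting used strand is not given in the sources used here, so reads of these bases may not have been told apart between the genes. Unc13a had 25.5 ± 6.97 (SD, n = 4) normalized counts in WT livers and 55.5 ± 10.2 (SD, n = 4) in KO mice, so its mean was higher where that of Colgalt1 was lower (edgeR, log2 fold change 1.12, Benjamini-Hochberg adjusted P = 0.123).

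Colgalt2 (ENSMUSG00000032649, chromosome 1 from 152399830 to 152510695, plus strand) encodes the second galactosyltransferase, whose expression is known to be more restricted to certain tissues. It had 11, 6, 1 and 17 raw counts in WT mice 22 to 25 and 31, 38, 16 and 42 in MøFoxO1-KO mice 26 to 29. After normalization these were 10.3, 5.90, 0.923 and 16.9 in WT mice and 29.7, 45.4, 15.2 and 47.0 in MøFoxO1-KO mice. MøFoxO1-KO mouse 28 lay below WT mouse 25, so that the groups overlapped by this pair of mice, and the other 3 MøFoxO1-KO livers were above all WT livers. The means were 8.51 ± 6.79 (SD, n = 4) and 34.3 ± 15.0 (SD, n = 4) (exact two-sided permutation test, P = 0.0571). The fitted log2 fold change was 2.0 (standard error 0.62, 95% interval from 0.61 to 3.38), and edgeR gave a P of 0.00928 and a Benjamini-Hochberg adjusted P of 0.178. Without MøFoxO1-KO mouse 28 the groups did not overlap and the log2 fold change was 2.26 (edgeR, Benjamini-Hochberg adjusted P = 0.132). DESeq2 on the same counts gave a log2 fold change of 2.03 and an adjusted P of 0.0406, past both limits. The call for Colgalt2 therefore depended on the tool, and at 1 to 17 counts per WT library its level there was imprecise.

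**Figure D2:**
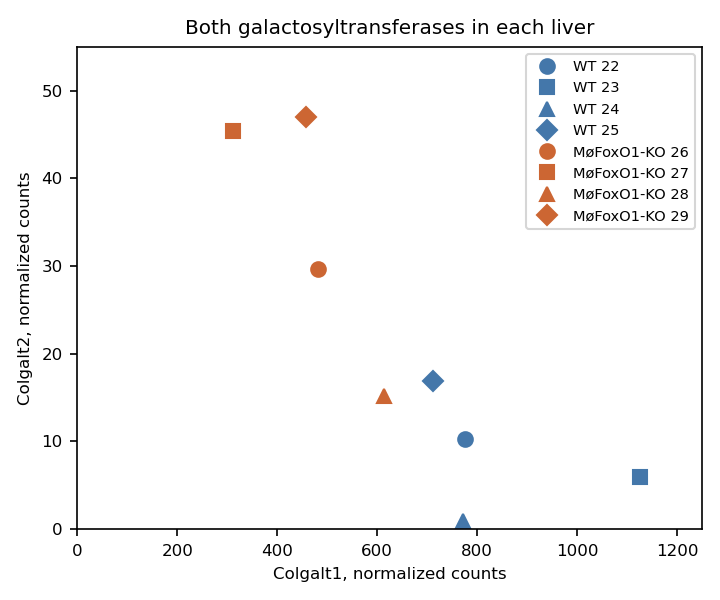
Normalized counts of Colgalt1 (horizontal axis) and Colgalt2 (vertical axis) in each of the 8 livers, with 1 symbol per mouse. MøFoxO1-KO mice 27 and 29 had the highest Colgalt2 levels and the lowest Colgalt1 levels, and MøFoxO1-KO mouse 28 lay nearest to the WT livers.

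Per kilobase of exon, Colgalt2 remained the minor galactosyltransferase in each liver. Normalized counts per kilobase were 266 ± 59.5 (SD, n = 4) for Colgalt1 and 2.01 ± 1.60 for Colgalt2 in WT livers, and 147 ± 38.8 and 8.09 ± 3.52 in MøFoxO1-KO livers. The level of Colgalt2 per 100 of Colgalt1, on this per-length scale, was 0.995, 0.392, 0.0895 and 1.78 in WT mice 22 to 25 and 4.62, 10.9, 1.85 and 7.69 in MøFoxO1-KO mice 26 to 29. The groups did not overlap in this ratio, with a narrow gap between MøFoxO1-KO mouse 28 and WT mouse 25. The ratio was chosen after the values were seen and was not tested.

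The 3 lysyl hydroxylases, which differ in the lysines they hydroxylate, had overlapping groups and small fitted fold changes. Plod1 (ENSMUSG00000019055, chromosome 4 from 147909753 to 147936767, minus strand) encodes lysyl hydroxylase 1, which acts on lysines of the triple helix. Plod1 had 925, 1088, 928 and 1090 normalized counts in WT mice and 958, 1071, 817 and 767 in MøFoxO1-KO mice. MøFoxO1-KO mice 28 and 29 were the lowest of the 8, and mice 26 and 27 lay within the WT range. The log2 fold change was -0.16 (standard error 0.13, 95% interval from -0.45 to 0.14, edgeR, Benjamini-Hochberg adjusted P = 0.591), and it was -0.10 without MøFoxO1-KO mouse 28.

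Plod2 (ENSMUSG00000032374, chromosome 9 from 92542223 to 92608428, plus strand) encodes lysyl hydroxylase 2, which acts on the telopeptides at the chain ends and gives rise to the hydroxylysine-derived crosslinks that accumulate in fibrosis. Plod2 was low in all livers, at 18.7, 7.87, 12.9 and 26.9 normalized counts in WT mice and 12.5, 15.5, 12.3 and 19.0 in MøFoxO1-KO mice. All 4 MøFoxO1-KO values lay between the lowest and the highest WT value. The log2 fold change was -0.17 (standard error 0.42, 95% interval from -1.09 to 0.76, edgeR, Benjamini-Hochberg adjusted P = 0.876), and it was -0.40 without WT mouse 23 and -0.072 without MøFoxO1-KO mouse 28. Without WT mouse 25 the sign turned, to a log2 fold change of 0.16.

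Plod3 (ENSMUSG00000004846, chromosome 5 from 136987019 to 136996648, plus strand) encodes lysyl hydroxylase 3, which also adds glucose to the galactose that the COLGALT enzymes attach. Plod3 had 449, 374, 503 and 414 normalized counts in WT mice and 411, 491, 454 and 510 in MøFoxO1-KO mice. The groups interleaved, with WT mouse 23 the lowest and MøFoxO1-KO mouse 29 the highest. The log2 fold change was 0.10 (standard error 0.12, 95% interval from -0.18 to 0.38, edgeR, Benjamini-Hochberg adjusted P = 0.731). Leaving out WT mouse 23 gave 0.034, and it was -0.065 where libraries were scaled by their total counts alone. Plod3 shares 529 of its 4519 exon bases with Znhit1, a gene of a chromatin remodeling complex on the opposite strand, which had 586 ± 104 (SD, n = 4) normalized counts in WT livers and 831 ± 98.5 (SD, n = 4) in KO mice.

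**Figure D3:**
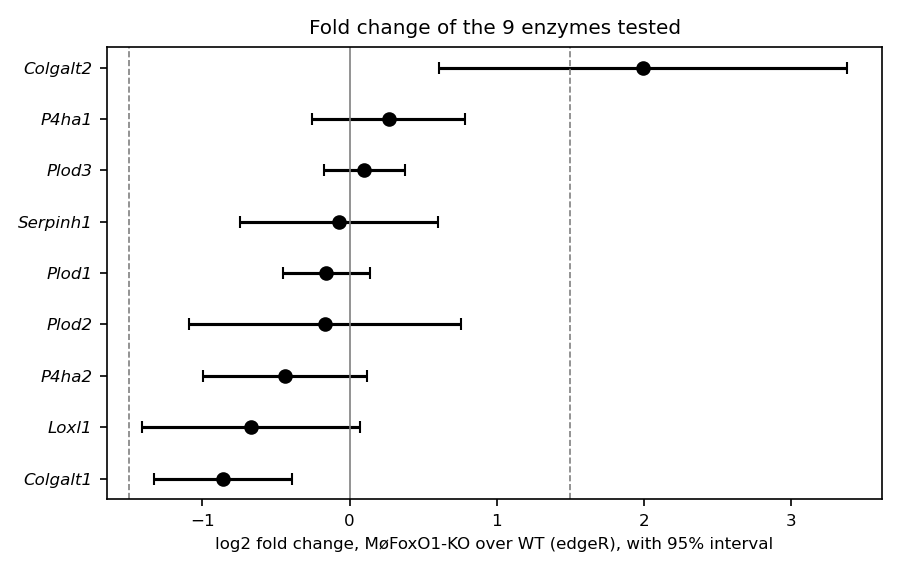
Log2 fold changes of the 9 genes tested, MøFoxO1-KO over WT, on the horizontal axis, with 95% intervals from edgeR. Dashed lines mark the limit of 1.5 in each direction. The intervals of Colgalt1 and Colgalt2 lie on either side of 0, and those of the other 7 genes hold 0.

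The prolyl hydroxylase subunits differed in the sign of their fold change, and neither difference passed the test. P4ha1 (ENSMUSG00000019916, chromosome 10 from 59323296 to 59373304, plus strand) and P4ha2 (ENSMUSG00000018906, chromosome 11 from 54100095 to 54131665, plus strand) encode catalytic subunits of prolyl 4-hydroxylase, which need oxygen, iron and 2-oxoglutarate. P4ha1 had 139, 114, 228 and 161 normalized counts in WT mice and 146, 245, 186 and 197 in MøFoxO1-KO mice. WT mice 23 and 22 were the lowest of the 8 and WT mouse 24 the second highest, so that the WT range enclosed 3 of the 4 MøFoxO1-KO values. The log2 fold change was 0.27 (standard error 0.23, 95% interval from -0.25 to 0.78, edgeR, Benjamini-Hochberg adjusted P = 0.608), and it was 0.13 without WT mouse 23.

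P4ha2 had 149, 148, 90.4 and 183 normalized counts in WT mice and 136, 111, 99.6 and 73.9 in MøFoxO1-KO mice. WT mouse 24 was again apart from its group, here as the lowest, and the other 3 WT livers were above all MøFoxO1-KO livers. The log2 fold change was -0.44 (standard error 0.25, 95% interval from -1.0 to 0.12, edgeR, Benjamini-Hochberg adjusted P = 0.413). Without WT mouse 24, P4ha2 had a log2 fold change of -0.61 and an adjusted P of 0.262, and P4ha1 had 0.48 and 0.310 (edgeR, Benjamini-Hochberg). Per length, P4ha2 stood at 70.8, 85.8, 26.2 and 74.9 per 100 of P4ha1 in WT mice and at 61.6, 29.9, 35.3 and 24.7 in MøFoxO1-KO mice, and the groups overlapped through WT mouse 24.

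Serpinh1 (ENSMUSG00000070436, chromosome 7 from 99345375 to 99353230, minus strand), the gene of the collagen chaperone HSP47, had means that differed by less than the spread within either group. Its normalized counts were 298, 121, 238 and 236 in WT mice and 125, 189, 279 and 259 in MøFoxO1-KO mice. Each group had a mouse near 120, WT mouse 23 and MøFoxO1-KO mouse 26, and the groups overlapped over most of their range. The means were 223 ± 74.0 (SD, n = 4) and 213 ± 70.3 (SD, n = 4), and the fitted log2 fold change was -0.07 (standard error 0.30, 95% interval from -0.74 to 0.60, edgeR, Benjamini-Hochberg adjusted P = 0.932). Leaving out WT mouse 23 gave -0.28, leaving out MøFoxO1-KO mouse 28 gave -0.22 and leaving out both gave -0.43, and the sign turned without MøFoxO1-KO mouse 26 (0.12) or WT mouse 22 (0.10), with adjusted P between 0.453 and 0.911 in these 5 fits (edgeR, Benjamini-Hochberg).

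Of the lysyl oxidases, which act outside the cell, Loxl1 had a lower mean in MøFoxO1-KO livers without passing the test and Lox was too low to test. Loxl1 (ENSMUSG00000032334, chromosome 9 from 58287723 to 58313212, minus strand), also known for its part in elastic fibers, had 83.4, 38.3, 87.7 and 90.6 normalized counts in WT mice and 40.3, 29.9, 65.5 and 52.6 in MøFoxO1-KO mice. WT mice 22, 24 and 25 were above all MøFoxO1-KO livers, and WT mouse 23 lay among them. The means were 75.0 ± 24.6 (SD, n = 4) and 47.1 ± 15.4 (SD, n = 4), and the log2 fold change was -0.67 (standard error 0.33, 95% interval from -1.41 to 0.07, edgeR, Benjamini-Hochberg adjusted P = 0.349). Without WT mouse 23 the groups did not overlap and the log2 fold change was -0.88 (edgeR, Benjamini-Hochberg adjusted P = 0.237). Without both WT mouse 23 and MøFoxO1-KO mouse 28 it was -1.08 (edgeR, Benjamini-Hochberg adjusted P = 0.108).

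Lox (ENSMUSG00000024529, chromosome 18 from 52516069 to 52529867, minus strand) encodes the founding lysyl oxidase. It had 9, 3, 8 and 6 raw counts in WT mice and 3, 3, 12 and 7 in MøFoxO1-KO mice, under the filter on low counts. The 2 groups covered much the same range, and a difference was not detectable at this depth. In a fit without the filter the log2 fold change was 0.05 (standard error 0.65, edgeR, Benjamini-Hochberg adjusted P = 0.988).

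Ordered by normalized counts per kilobase of exon averaged over the 8 livers, the levels were 206 for Colgalt1, 141 for Plod1, 99.7 for Plod3, 89.5 for Serpinh1, 43.0 for P4ha1, 19.9 for P4ha2, 18.3 for Loxl1, 5.05 for Colgalt2, 2.92 for Plod2 and 1.31 for Lox. Between neighbors in this order, the ranges over the 8 livers were separate only for Plod1 and Plod3. Within a liver, the higher neighbor was above the lower one in all 8 mice for Plod1 over Plod3, Serpinh1 over P4ha1 and P4ha1 over P4ha2. By contrast, P4ha2 was above Loxl1 in 4 of 8 mice. Colgalt2 was above Plod2 in 0 of 4 WT livers and in 4 of 4 MøFoxO1-KO livers, which was the 1 place where the order of the group means differed.

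On the same per-length scale, the 10 genes together summed to 692, 714, 690 and 680 in WT mice and to 514, 543, 618 and 568 in MøFoxO1-KO mice, and these sums did not overlap. Colgalt1 made up 35.2, 49.6, 35.2 and 33.0% of the sum in WT mice and 29.4, 18.1, 31.2 and 25.3% in MøFoxO1-KO mice. Without Colgalt1, the other 9 genes summed to 449, 360, 447 and 456 in WT mice and to 363, 445, 425 and 424 in MøFoxO1-KO mice, where the groups overlapped.

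The collagens on which these enzymes act mostly had fold changes below 0 in MøFoxO1-KO livers. Of 14 collagen genes tested, 12 were below 0, against 51.7% of all genes tested, and 2 above, with a median log2 fold change of -0.38 beside -0.01 for all genes, 5 were lower at an unadjusted P under 0.05, against 8.06% of all genes, and none was called by edgeR, DESeq2 or limma-voom. Col1a1, a chain of type I collagen, had 513, 321, 404 and 249 normalized counts in WT mice and 110, 46.6, 228 and 227 in MøFoxO1-KO mice. The groups did not overlap, and mouse 27 was the lowest. Its log2 fold change was -1.28 (standard error 0.42, edgeR, Benjamini-Hochberg adjusted P = 0.193). Col1a2 and Col3a1, the partner chain and the chain of type III collagen, both had log2 fold changes of -0.76, with overlapping groups (edgeR, Benjamini-Hochberg adjusted P = 0.264 and 0.250). Col6a3 had a log2 fold change of -0.88 and Col15a1 of -0.71 (edgeR, Benjamini-Hochberg adjusted P = 0.259 and 0.229). Col18a1, a basement membrane collagen that hepatocytes express and the highest of the list, had 13737 ± 3484 (SD, n = 4) normalized counts in WT livers and 13555 ± 1448 (SD, n = 4) in KO mice.

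The counts of each of the 10 genes were also set against the fibrillar collagen of the same liver. These ratios share 1 denominator, whose mean was 1552 normalized counts in WT livers and 852 in MøFoxO1-KO livers. A gene whose own counts do not differ therefore has a higher mean ratio in MøFoxO1-KO livers. The denominator was the sum of Col1a1, Col1a2 and Col3a1, which was 2259, 1324, 1404 and 1222 normalized counts in WT mice and 592, 505, 987 and 1322 in MøFoxO1-KO mice. These sums overlapped through mouse 29 (exact two-sided permutation test, P = 0.0571). The log2 ratio of enzyme to fibrillar collagen counts was higher without overlap in MøFoxO1-KO livers for 4 of 10 genes, including Lox, which was not among the genes tested. Among the genes tested these were Colgalt2, Plod3 and Serpinh1, and a non-overlapping higher ratio was also found for 20.1% of all genes tested.

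Among these 4, Colgalt2 had the widest difference, with a log2 ratio of -7.88 ± 1.59 (SD, n = 4) in WT livers, as against -4.63 ± 1.05 (SD, n = 4) in KO mice. Plod3 followed with -1.80 ± 0.384 and -0.76 ± 0.599, Lox with -7.90 ± 0.506 and -7.01 ± 0.482 on few counts, and Serpinh1 with -2.82 ± 0.474 and -1.96 ± 0.428 (n = 4 per group). Each of the 4 reached the smallest P that an exact two-sided permutation test of 4 against 4 allows (P = 0.0286), among 10 genes examined. The gap for Serpinh1 was narrow, with -2.37 in WT mouse 25 and -2.35 in MøFoxO1-KO mouse 29. The gap for Lox was also narrow, with -7.48 in WT mouse 24 and -7.46 in MøFoxO1-KO mouse 26, which had 3 raw counts. It rested on the 0.5 added to the enzyme counts, without which MøFoxO1-KO mouse 26 would lie below WT mice 24 and 25. Colgalt1 had nearly equal mean log2 ratios of -0.85 and -0.80, and both its counts and those of the fibrillar collagens had lower means in MøFoxO1-KO livers. With Col1a1 alone in the denominator the count was 4, with P4ha1 in place of Colgalt2. Col1a1 had lower normalized counts in every MøFoxO1-KO liver than in any WT liver. The share of all genes was not counted with this denominator.

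**Figure D4:**
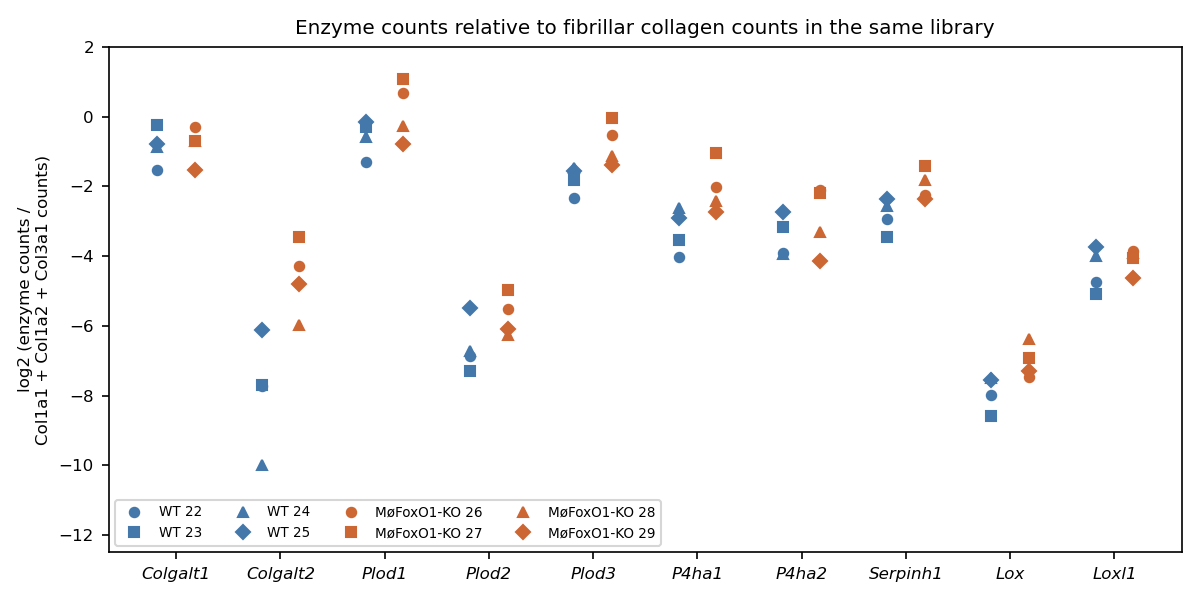
Log2 ratio of each enzyme's counts to the summed counts of Col1a1, Col1a2 and Col3a1 in the same library (vertical axis) for the 10 genes (horizontal axis), with 1 symbol per mouse. Colgalt2, Plod3, Serpinh1 and Lox have higher ratios in all 4 MøFoxO1-KO livers than in any WT liver, whereas the groups overlap for the other 6.

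Other genes of collagen biosynthesis and processing also had no call by edgeR, DESeq2 or limma-voom at both limits, and Ppib was the 1 gene with an adjusted P under 0.05 by DESeq2. Of 32 listed, 26 were tested, 9 had a fold change above 0 and 17 below, the median log2 fold change was -0.10, and 1 was higher and 2 were lower at an unadjusted P under 0.05 (8.65% and 8.06% of all genes). Ppib, which encodes cyclophilin B of the prolyl 3-hydroxylation complex, had 918, 801, 725 and 681 normalized counts in WT mice and 1285, 1224, 914 and 1005 in MøFoxO1-KO mice. Only MøFoxO1-KO mouse 28 and WT mouse 22 overlapped, by a few counts, and the log2 fold change was 0.50 (standard error 0.15, edgeR, Benjamini-Hochberg adjusted P = 0.152). Crtap, a partner of Ppib in this complex, had a log2 fold change of -0.80 (edgeR, Benjamini-Hochberg adjusted P = 0.255), and Tgm2, the crosslinking transglutaminase, of -0.46 (edgeR, Benjamini-Hochberg adjusted P = 0.265). P4hb, which encodes the shared subunit of prolyl 4-hydroxylase and is also a general disulfide isomerase, was the highest of this list per length, with 18136 ± 3493 (SD, n = 4) and 19330 ± 2899 (SD, n = 4) normalized counts and a log2 fold change of 0.09. The remaining lysyl oxidase genes Loxl2, Loxl3 and Loxl4 had log2 fold changes of -0.26, -0.02 and -0.66 on 9.18 to 39.7 mean normalized counts, with overlapping groups; they were named after their values were seen.

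Genes of ER protein folding and the ER stress response that are not specific to collagen, which include chaperones, disulfide isomerases and the transcription factors Ddit3 and Xbp1, had fold changes in 1 direction. All 15 tested had a fold change above 0, against 48.3% of all genes tested, with a median log2 fold change of 0.39. Of the 15, 9 were higher at an unadjusted P under 0.05, against 8.65% of all genes, and 7 were higher without overlap between groups, against 5.00% of all genes. None was called by edgeR, DESeq2 or limma-voom at both limits, whereas 6 had an adjusted P under 0.05 by DESeq2. Hsp90b1, the ER form of HSP90, had 3658 ± 144 (SD, n = 4) normalized counts in WT livers and 4996 ± 425 (SD, n = 4) in KO mice and a log2 fold change of 0.45 (edgeR, Benjamini-Hochberg adjusted P = 0.121). Calr, the calcium-binding chaperone calreticulin, had a log2 fold change of 0.53, Dnajb11, a cochaperone of BiP, of 0.43, and Sdf2l1, an ER stress-induced partner of BiP, of 1.00 (edgeR, Benjamini-Hochberg adjusted P = 0.131, 0.131 and 0.134). Manf and Pdia6, a stress-induced ER protein and a disulfide isomerase, had log2 fold changes of 0.58 and 0.53 (edgeR, Benjamini-Hochberg adjusted P = 0.151 and 0.161). Ddit3 and Xbp1, named after their values were seen, had log2 fold changes of 0.14 and 0.10. Whether the genes of this list differed from Serpinh1 in their change was not tested.

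Neither hypoxia-induced genes nor other dioxygenases that use 2-oxoglutarate moved in 1 direction as a list. Of 18 hypoxia-induced genes, 16 were tested, 7 had a fold change above 0 and 9 below, with a median log2 fold change of -0.15. At an unadjusted P under 0.05, 1 was higher and 2 were lower, against 8.65% and 8.06% of all genes. Without overlap, 1 was higher and 1 was lower, against 5.00% and 4.71% of all genes. Egln1, the oxygen sensor that hydroxylates HIF, had a log2 fold change of -0.54 with no overlap, Higd1a, a mitochondrial protein, of 0.47 with no overlap, and Pdk1, a kinase that restrains pyruvate dehydrogenase, of -0.46 (edgeR, Benjamini-Hochberg adjusted P = 0.131, 0.148 and 0.252). Ldha, lactate dehydrogenase and the highest of the list, had a log2 fold change of 0.45 (edgeR, Benjamini-Hochberg adjusted P = 0.347). No gene of this list was called by edgeR, DESeq2 or limma-voom at both limits, whereas Egln1 and Higd1a had an adjusted P under 0.05 by DESeq2. Of 11 other dioxygenases tested, none of them called by these tools, 4 had a fold change above 0 and 7 below, with a median of -0.04. Kdm4a, a histone demethylase, was the 1 gene at an unadjusted P under 0.05, against 8.06% of all genes on the lower side. It had a log2 fold change of -0.51 (edgeR, Benjamini-Hochberg adjusted P = 0.148), and Phyh, of peroxisomal fatty acid oxidation and the highest, had 0.17.

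**Figure D5:**
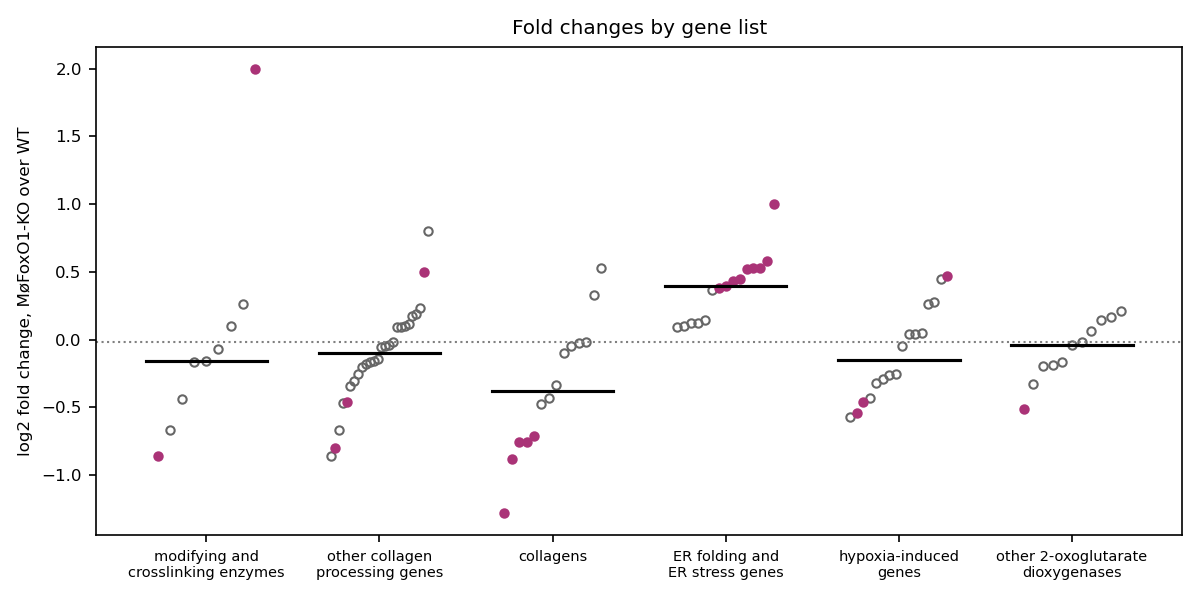
Log2 fold changes of the tested genes in 6 lists (horizontal axis), MøFoxO1-KO over WT, with 1 point per gene. Filled points have an unadjusted P under 0.05 (edgeR), black bars mark the median of each list and the dotted line the median of all genes. The 15 genes of ER folding and the ER stress response lie above 0 and 12 of 14 collagens lie below it, whereas the modifying and crosslinking enzymes spread from -0.86 to 2.0.

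Marker genes of the cell types that could contribute these transcripts were summed in each liver. Of 12 markers of hepatic stellate cells and myofibroblasts, 9 had a fold change above 0, 3 below and 0 an unadjusted P under 0.05, and their sum ranged from 7339 to 14378 normalized counts in WT livers and from 11030 to 16634 in MøFoxO1-KO livers. Of 12 markers of macrophages and Kupffer cells, 11 had a fold change above 0, and 7 were higher at an unadjusted P under 0.05, against 8.65% of all genes. Their sums were 3565 to 5801 in WT livers and 4510 to 19197 in MøFoxO1-KO livers. Markers of endothelial cells summed to 1794 to 4751 and 3348 to 5152, and 8 of 8 had a fold change above 0 with 0 at an unadjusted P under 0.05. The lowest WT sums of the stellate cell, macrophage and endothelial lists were all those of WT mouse 23. The next lowest WT sums were 11047, 4968 and 3616. The directions of these markers were not counted without this mouse. Of 5 cholangiocyte markers tested, 0 had a fold change above 0, and the 6 listed summed to 1313 to 1728 and 983 to 1498. No marker of these 4 lists was at 0 in all livers. Markers of T, B and NK cells summed to 67.8 to 249 and 159 to 336, and those of neutrophils to 51.1 to 147 and 38.3 to 146. Of 7 exocrine pancreas markers, Cpa1, Prss2, Pnlip, Cel and Amy2a5 were at 0 counts in every liver, and the list summed to 174 to 242 and 254 to 693. Hepatocyte markers summed to 1072910 to 1503940 and 1250400 to 1859050. The adipose sum ranged from 142 to 2347 and from 0 to 4516, with Lep at 0 throughout. The highest was that of MøFoxO1-KO mouse 28, against 5.75, 11.9 and 0 in MøFoxO1-KO mice 26, 27 and 29. MøFoxO1-KO mice 27 and 29 had the highest macrophage sums and also the highest hepatocyte sums. On the first principal component they lay at the end opposite to WT mouse 23. The same mice had the highest Colgalt2 and the lowest Colgalt1 levels. The part of these cell types in the results was not tested.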

How the data were processed

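Liver RNA of 4 MøFoxO1-KO mice and 4 WT littermates was sequenced as polyadenylated RNA. The authors deposited 1 table of raw read counts per gene for 46517 Ensembl genes, with GRCm38 coordinates, exons and summed exon lengths, and without normalization. STAR, featureCounts and mm10 are named in the submitters' processing notes. Versions, whether strand was used and how reads on several genes were counted are not given in the sources used here. Symbols came from GENCODE M21 and matched 46005 genes.

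Counts were filtered with filterByExpr (minimum count 10, minimum total 15), scaled by TMM and tested over 13278 genes by edgeR's quasi-likelihood test (edgeR 4.0.16, R 4.3.3), with Benjamini-Hochberg adjustment over all genes tested. A call required a log2 fold change beyond 1.5 in either direction and an adjusted P under 0.05. Normalized counts are counts divided by the TMM-scaled library size relative to its mean over the 8 mice, and levels per length divide these by kilobases of exon. For ratios to fibrillar collagen, 0.5 was added to the counts of the enzyme. Exact two-sided permutation tests of single values used scipy 1.17.1.

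Alternatives were DESeq2 1.42.0, its size factors, upper-quartile scaling, limma-voom (limma 3.58.1), a robust fit, no filter, at least 10 counts in every mouse, and omission of 1 mouse at a time (8 fits). For the ratio, Col1a1 alone was an alternative denominator. Scaling by total counts, and leaving out WT mouse 23 and MøFoxO1-KO mouse 28 together, were chosen after seeing the data. Total counts of 15253218 to 18025481 per mouse limit the precision for genes with few counts. The members and lists were chosen with earlier results of these data known. Named genes are all 10 members, Foxo1, Col1a1, Col1a2, Col3a1 and, from each other list, up to 6 genes with the smallest unadjusted P under 0.05 and the gene of the highest level per length. Genes that share exons with a member, Loxl2, Loxl3, Loxl4, Ddit3 and Xbp1 were added later. Tests were tried on simulated data. Python 3.11.15, pandas 2.3.3, numpy 2.4.6 and matplotlib 3.10.9 were used for tables and plots.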

Additional observations from a re-analysis of the deposited data

Results flagged for a closer look

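In 28 groups of 4 mice examined for a sample far from the others, 3 had a mouse whose gap to its nearest neighbor, as a share of the range of the group, was above Dixon's critical value for 4 values, and chance gives this in about 1 in 20 groups. Colgalt1 in WT mouse 23 had 1127 normalized counts, against 712 to 776 in the other 3 WT mice. Loxl1 in the same mouse had 38.3 normalized counts, against 83.4 to 90.6 in the others, so that this library was the highest WT library for the galactosyltransferase and the lowest for the lysyl oxidase. Col3a1 in WT mouse 22 had 1231 normalized counts, against 640 to 702 in the other WT mice, and this library also had the highest summed fibrillar collagen counts.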

How the results depend on the processing

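No paired analysis was possible because the mice of the groups share no replicate number. Over up to 17 alternatives, 146 of 151 fold changes of single members kept their sign and side of the threshold. The main test called 0 members and DESeq2 called 1 (Colgalt2), and leaving out each mouse in turn gave 0 to 0. Of all genes, 25 were called by the main test, 144 by DESeq2, 120 without a filter, 13 by limma-voom, 82 without MøFoxO1-KO mouse 28, 79 also without WT mouse 23, and 3 to 15 without WT mouse 22 or 25 or MøFoxO1-KO mouse 26, 27 or 29. Members at an unadjusted P under 0.05 numbered 2, became 1 with at least 10 counts in every mouse, where Colgalt2 was not tested, 5 with scaling by total counts (Plod1, P4ha2 and Loxl1 added), and 2 to 4 without single mice (4 without WT mouse 24). Members without overlap numbered 1, became 2 with total counts (Plod1 added), 3 without WT mouse 23 and MøFoxO1-KO mouse 28 together (Colgalt2 and Loxl1 added), and 1 to 2 without single mice. That number was 2 without WT mouse 23, 24 or 25 or MøFoxO1-KO mouse 28, with Loxl1, P4ha2, Colgalt2 and Colgalt2 added. The shares of all genes at an unadjusted P under 0.05 or without overlap were not counted at these settings. Groups with fewer mice separate more easily. The smallest P of an exact two-sided permutation test is 0.0286 at 4 against 4 and 0.0571 at 4 against 3.

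The sign turned for Plod2 without WT mouse 25 (0.16; range without single mice -0.40 to 0.16), for Plod3 with total counts (-0.065), and for Serpinh1 without MøFoxO1-KO mouse 26 (0.12) or WT mouse 22 (0.10; range without single mice -0.28 to 0.12). Scaling by total counts moved the median log2 fold change of all genes from -0.01 to -0.17. It moved the median of other collagen processing genes from -0.10 to -0.26, of hypoxia-induced genes from -0.15 to -0.30 and of other dioxygenases from -0.04 to -0.19. Without a filter the medians of the last 2 lists were -0.016 and -0.11, and without both mice that of the first was -0.25. Without single mice the medians ranged from -0.16 to -0.01, from -0.45 to -0.25 for collagens, from 0.30 to 0.48 for ER folding and stress genes, from -0.19 to -0.11 for hypoxia-induced genes and from -0.12 (without MøFoxO1-KO mouse 28) to -0.019 for dioxygenases. The number of members with a higher ratio to fibrillar collagen without overlap was 4 to 5, Lox among them at each setting. The share of all genes with such a ratio was counted only at the main setting. For Colgalt1, log2 fold changes lay from -1.01 to -0.69 with adjusted P from 0.0105 to 0.310 (edgeR, DESeq2 or limma-voom, Benjamini-Hochberg), and for Colgalt2 from 1.62 to 2.56 with adjusted P from 0.0406 to 0.418. Apart from the filters and the mice left out, the cause was not tested. Depth limits Colgalt2, Plod2 and Lox, which had as few as 1, 8 and 3 counts in a library.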
